A study of Danio rerio with 12 samples.

Results

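The baseline open chromatin of zebrafish embryos is described here from the solvent controls of an ATAC-seq study, that is, from the 6 DMSO libraries among its 12. ATAC-seq uses the Tn5 transposase to cut and tag DNA that is not packed away, so that read density over a region measures its accessibility. The embryos were whole wild-type animals of the AB/Tuebingen background at 6 hours post fertilization, collected just after spawning and kept in 0.1% DMSO. The controls form 2 groups of 3 libraries, the DMSO control of TDCIPP (a flame retardant, given to other embryos at 3.12 µM) and the DMSO control of DAC (decitabine, at 100 µM). They are called the TDCIPP-control set and the DAC-control set below. No level of a treated group is used in any result, apart from a check of the log base. All cells of the embryo were pooled, so a region open in a few cells and a region partly open in all cells cannot be told apart. Nothing in the labels says whether the 3 libraries of a group came from separate clutches, nor which libraries were prepared together, so the control set and any batch cannot be told apart.

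The members are the regions of 2 deposited tables, with 35040 regions for the TDCIPP-control set and 45019 for the DAC-control set, 80059 in all. Each table has its own consensus regions, built from the libraries of its experiment, treated ones included. The number, width, density and pairing of regions, and the extent over which a level is counted, thus depend on treated libraries too. For each region it gives 1 level per group: the normalized read counts of the 3 libraries over the whole region were averaged and put on the log2 scale. The tables used here hold no value of a single library, so the spread between replicates is unknown, no test between the sets could be made, and every comparison below is a description of these 2 group means. Coordinates are on GRCz11. No sequence or gene annotation of that build was used, so regions are given by position only.

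This stage is the start of gastrulation, when the embryo's own genome has been transcribed for a few hours and the germ layers are being set apart. Accessible DNA lies largely at promoters and enhancers. Many of them are opened during genome activation with the help of the maternally supplied transcription factors Pou5f3, Sox19b and Nanog. Chromosome 4 is a special case in zebrafish, because its long arm is heterochromatic, replicates late and is crowded with repeated sequence.

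Most regions held few reads and a small number held very many. The median level was 6.38 in the TDCIPP-control set (quartiles 5.62 and 7.37), or 83.3 normalized reads per library and region. In the DAC-control set it was 4.14 (quartiles 3.50 and 4.91), or 17.6 normalized reads. The normalized reads summed over all regions came to 7.91 M for the TDCIPP-control set and 1.88 M for the DAC-control set (M, 1e6). How libraries were scaled is not given, so levels are compared between the sets only after centring. Levels ran from 3.13 to 17.92 in the first set and from 0.86 to 14.27 in the second. In both sets the reads were concentrated to a like degree. The upper 1% of regions by level, 350 and 450 regions, held 36.0% of the reads of the TDCIPP-control set and 38.2% of those of the DAC-control set. The upper 10% held 60.4% and 58.5%.

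Regions were about as wide in both sets. The median width was 1179 bp in the TDCIPP-control set (quartiles 866 and 1620 bp) and 1123 bp in the DAC-control set (quartiles 801 and 1614 bp), and the regions covered 47.9 Mb and 62.1 Mb. The extremes differed more than the middle. The DAC-control table held 1645 regions narrower than 500 bp against 118 in the TDCIPP-control table, and 109 regions of at least 10 kb against 36. Wider regions had more reads, with a Spearman correlation of level and width across regions of 0.488 and 0.493. Much of that relation is built in, because the level counts reads over the whole region. Per kilobase, the median level was 6.13 and 3.88, and the correlation with width was -0.0039 in the TDCIPP-control set and -0.214 in the DAC-control set, where wider regions were thus somewhat less dense in reads.

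**Figure D1:**
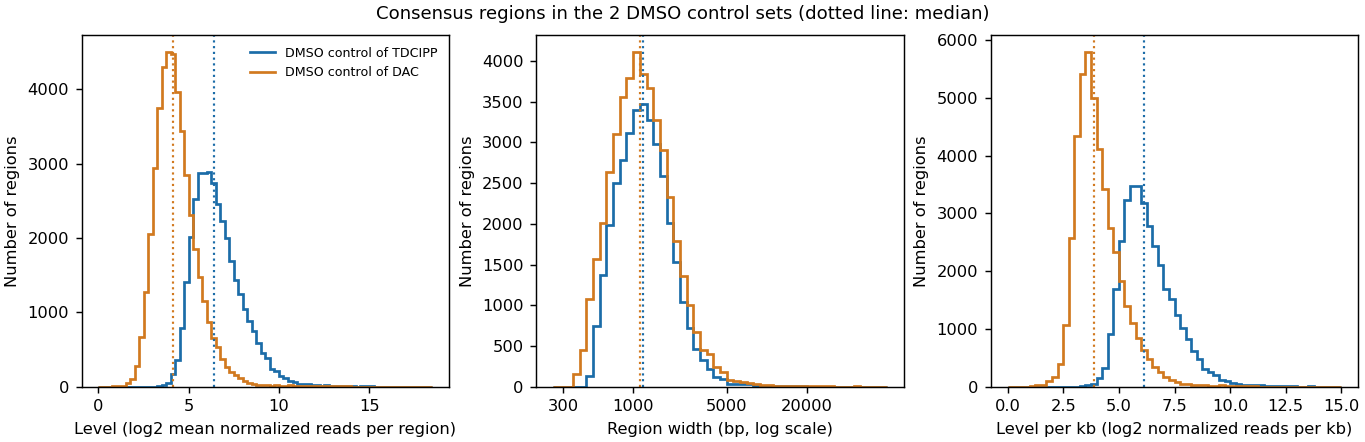
Number of regions by level (log2 mean normalized reads per region), by width (bp, on a log scale) and by level per kilobase (log2), for the TDCIPP-control set (blue) and the DAC-control set (orange), with dotted lines at the medians. The median widths are close, at 1179 and 1123 bp, while the DAC-control counts are higher at the peak and reach narrower widths. The levels of the 2 sets are shifted against each other, with medians of 6.38 and 4.14 and a long tail to the right in both.

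Chromosome 4 was the densest chromosome and chromosome 18 the sparsest in both sets. Over the 25 assembled chromosomes, the median was 21.9 regions per Mb in the TDCIPP-control set and 28.6 in the DAC-control set, counted up to the last region of a chromosome. Chromosome 4 had 29.7 and 42.1 regions per Mb, or 1.35 and 1.47 times the median. Chromosome 18 had 16.8 and 23.7, and without chromosome 4 the highest values were 25.6 on chromosome 3 and 32.5 on chromosome 2. The order of the chromosomes was nearly the same in the 2 sets, with a Spearman correlation of 0.928 over 25 chromosomes and 0.918 without chromosome 4. Both sets share the genome and its build, and the part of that in the order was not tested. Typical region levels hardly differed between chromosomes, since median levels ran from 6.23 to 6.54 in the TDCIPP-control set and from 4.05 to 4.23 in the DAC-control set.

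Reads were far less even than regions. Chromosome 4 held 6.62% of the regions and 24.7% of the reads in the TDCIPP-control set, and 7.29% of the regions and 14.1% of the reads in the DAC-control set. No other chromosome exceeded 6.15% of the reads in the first set or 6.23% in the second, values reached by chromosome 7 in both. The reads of chromosome 4 lay almost wholly beyond 28 Mb, a boundary chosen after the values were seen. That stretch held 23.3% of all reads in the TDCIPP-control set and 13.0% in the DAC-control set, against 1.45% and 1.10% before it. It was also denser in regions, at 32.4 and 50.5 per Mb against 24.9 and 26.9 before it. Its median levels over whole regions were close to those before it, at 6.52 against 6.57 in the TDCIPP-control set and 4.14 against 4.22 in the DAC-control set. Its regions were wider, with median widths of 1451 against 1205.5 bp in the TDCIPP-control set and 1383 against 1093.5 bp in the DAC-control set. The median region there thus held no more reads than before it, although it was wider, while the sum of the reads was far larger.

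**Figure D2:**
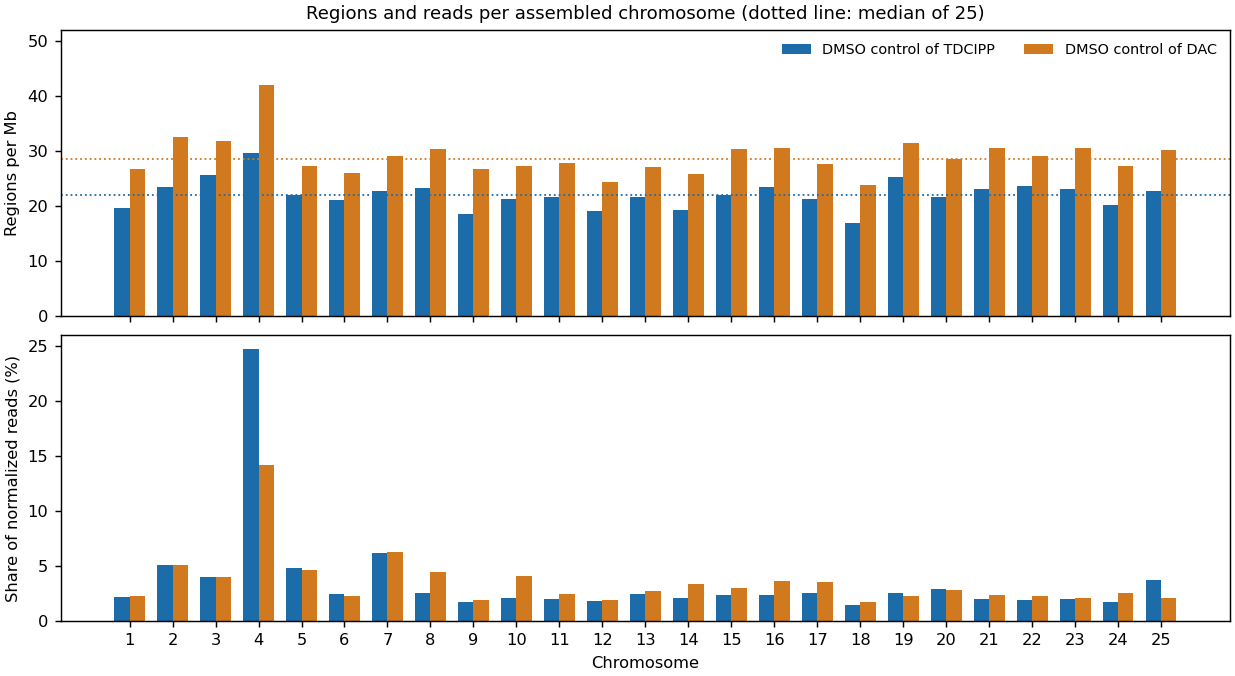
Regions per Mb (upper panel) and share of all normalized reads in percent (lower panel) for each of the 25 assembled chromosomes, as bars for the TDCIPP-control set (blue) and the DAC-control set (orange), with dotted lines at the median densities of 21.9 and 28.6. Chromosome 4 is highest in both panels and both sets, with 29.7 and 42.1 regions per Mb and 24.7% and 14.1% of the reads.

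Sequence outside the assembled chromosomes carried part of the landscape. Alternate scaffolds, which are other haplotypes of placed sequence, held 4403 regions in the TDCIPP-control set and 4397 in the DAC-control set. Unplaced sequence held 758 and 1341. Regions on alternate scaffolds had slightly lower median levels than the assembled chromosomes, at 6.18 against 6.41 and at 4.03 against 4.15. Unplaced sequence had slightly higher ones, at 6.65 and 4.24, and in the DAC-control set its 2.98% of the regions held 6.16% of the reads.

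Open regions were crowded towards the ends of the chromosomes. The outermost Mb held a median of 42.5 regions over the 50 chromosome ends in the TDCIPP-control set (quartiles 36.3 and 50.8) and 66.5 in the DAC-control set (quartiles 58.8 and 75). Here the right-hand end is taken as the last region of either table. At the fourth Mb the medians were 19 and 27. From there to the tenth Mb they lay between 16.5 and 22 in the TDCIPP-control set and between 20.5 and 27 in the DAC-control set. Relative to the mean density of its own chromosome, the outermost Mb held a median of 1.91 times as many regions in the TDCIPP-control set, above 1 at 49 of 50 ends. In the DAC-control set it held 2.36 times as many, above 1 at 50 of 50 ends. Levels there were somewhat higher too, with medians over the ends of 6.70 and 4.40 in the outermost Mb against 6.23 and 4.07 in the next.

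**Figure D3:**
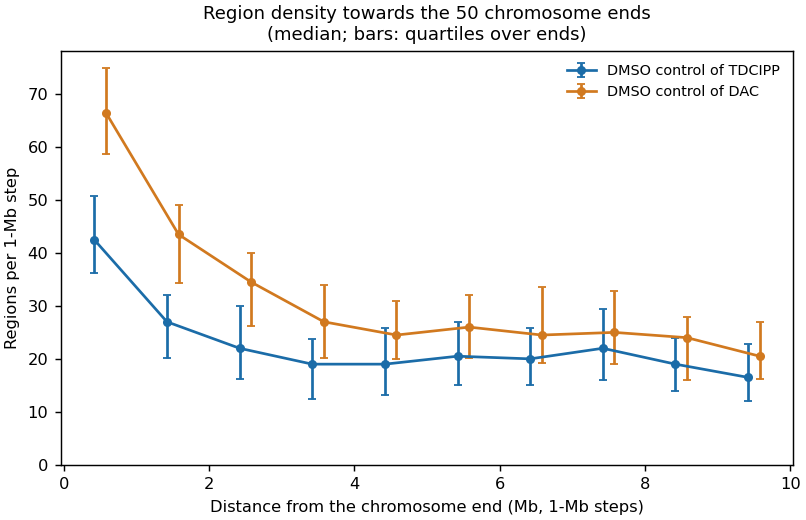
Regions per 1-Mb step (vertical axis) against the distance from the chromosome end in Mb, as the median over 50 ends with bars for the quartiles, for the TDCIPP-control set (blue) and the DAC-control set (orange). Both sets start at 42.5 and 66.5 regions in the outermost Mb and level off from the fourth Mb, where the medians are 19 and 27.

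Of all whole 1-Mb windows, the 4 densest by the lower count of the 2 sets were the first or the last whole window of their chromosome. The first Mb of chromosome 22 held 67 regions in the TDCIPP-control set and 88 in the DAC-control set. The first Mb of chromosome 21 held 62 and 82, the first Mb of chromosome 4 held 61 and 75, and chromosome 15 from 47000001 to 48000000 held 59 and 98. The typical window held far fewer, with a median of 20 and 26 regions over 1336 windows and 0 empty windows in either set. Window counts of the 2 sets had a Spearman correlation of 0.783. Of the densest 10% of windows, ties included, 138 in the TDCIPP-control set and 142 in the DAC-control set, 78 were shared.

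Most regions of the smaller table had a counterpart in the larger one. Pairing asked for 1 shared base or more, took the largest overlap first and used each region once, which gave 24956 pairs. That is 71.2% of the TDCIPP-control regions and 55.4% of the DAC-control regions. In bases, 30.5 Mb were shared, or 38.4% of the bases covered by either set. Most pairs shared a large part of their bases, but their extents often differed. In 87.7% of them the shared bases made up at least 50% of both regions. At least 80% of both was shared in 13480 of the 24956 pairs. In 59.8% of pairs 1 region lay wholly inside the other, which by itself does not show a like width. The widths had a Spearman correlation of 0.631 across pairs.

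Whether a region had a counterpart followed its level. In the lowest of 10 level classes of equal size, 34.9% of the TDCIPP-control regions were paired, and the share was higher in each next class up to 96.3% in the highest. In the DAC-control set it went from 19.2% to 92.0%, again higher in each next class. The 10084 unpaired TDCIPP-control regions had a median level of 5.62, against 6.77 in the paired ones, and held 10.4% of the reads. The 20063 unpaired DAC-control regions had a median level of 3.69, against 4.55, and held 18.6% of the reads. Width told less: in the TDCIPP-control set the paired share went from 55.2% in the narrowest class to 87.2% in the widest. In the DAC-control set it was 41.2% in the narrowest class, 61.1% in the fifth and 50.4% in the widest.

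Few unpaired regions touched the other table at all. Over all regions, 25209 of the TDCIPP-control set and 25324 of the DAC-control set touched one, and 24956 of each were paired. Most of the 10084 and 20063 unpaired regions thus touched none. The highest ones differed from that. Of the 3 highest of each table on assembled chromosomes, 6 in all, 5 touched a region of the other table that had been paired with another. On chromosome 4 at 30978520 to 30998264, a TDCIPP-control region of level 16.29 lay inside a DAC-control region, from 30951230 to 30998264, that was already paired with its neighbour. Those on chromosome 2 at 14660281 to 14661211 (level 14.04) and on chromosome 5 at 830907 to 833042 (level 13.52) also overlapped a region already in use. Of the 3 highest unpaired DAC-control regions, all on chromosome 4, those at 60171871 to 60174866 (level 11.00) and 61477891 to 61485682 (level 10.66) touched a region of the other table. Only the third, at 77557603 to 77561386 (level 10.76), touched none, and the nearest TDCIPP-control region was 3.25 kb away.

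At paired regions the 2 control sets ranked accessibility alike, with a wide scatter. The level was a median of 2.30 higher in the TDCIPP-control set, and each set was therefore centred on its own median over the pairs, 6.77 and 4.55. Centred levels had Pearson r = 0.787 and Spearman rho = 0.759 across the 24956 regions, which share libraries, sequence composition and width and are not replicates. The difference of centred levels, TDCIPP control minus DAC control, had an SD of 0.86 on the log2 scale, with quartiles of -0.40 and 0.49. Of the upper 10% of pairs by level, 2495 in each set, 1797 (72.0%) were the same. A centred difference of at least 1, which is a factor of 2, was found at 4532 pairs (18.2%). Of these, 2100 (8.41%) were higher in the TDCIPP-control set and 2432 (9.75%) higher in the DAC-control set. A difference of at least 2 was found at 200 pairs (0.801%) in the first direction and 656 (2.63%) in the second.

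Part of the scatter went with where the authors' regions begin and end. The centred difference had r = 0.596 with the log2 ratio of the 2 widths across pairs, and its median went from -0.69 in the lowest 20% of that ratio to 0.53 in the highest 20%. Per kilobase of region, r between the sets was 0.815 and the SD 0.70, and 11.7% of pairs were past a difference of 1. At the 13480 pairs that shared at least 80% of both regions, r between whole-region levels was 0.874, the SD 0.68 and the share past 1 was 10.7%.

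The spread of the difference changed with level both in its middle and in its tails. Over 10 classes of mean centred level, the SD was 0.76 in the lowest class, between 0.75 and 0.82 in the next 8, and 1.26 in the highest. The scaled median absolute deviation, which outlying pairs hardly move, was 0.71 in the lowest class, 0.49 in class 9 and 0.62 in the highest. From the lowest class to class 9 the middle of the differences thus narrowed, while the SD hardly moved. In the highest class a tail of pairs carried much of the SD. The median difference also moved with level, from -0.20 in the lowest class to 0.39 in the highest. The typical strong pair was thus relatively stronger in the TDCIPP-control set. In the highest class 19.0% of pairs were at least 1 higher in the TDCIPP-control set and 10.6% in the DAC-control set. Differences of at least 2 went more often the other way in that class. There 7.77% of pairs were at least 2 higher in the DAC-control set and 2.64% in the TDCIPP-control set. Levels of paired regions had an SD of 1.37 in the TDCIPP-control set and 1.25 in the DAC-control set, which centring leaves in place. Its part in the move was not tested.

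**Figure D4:**
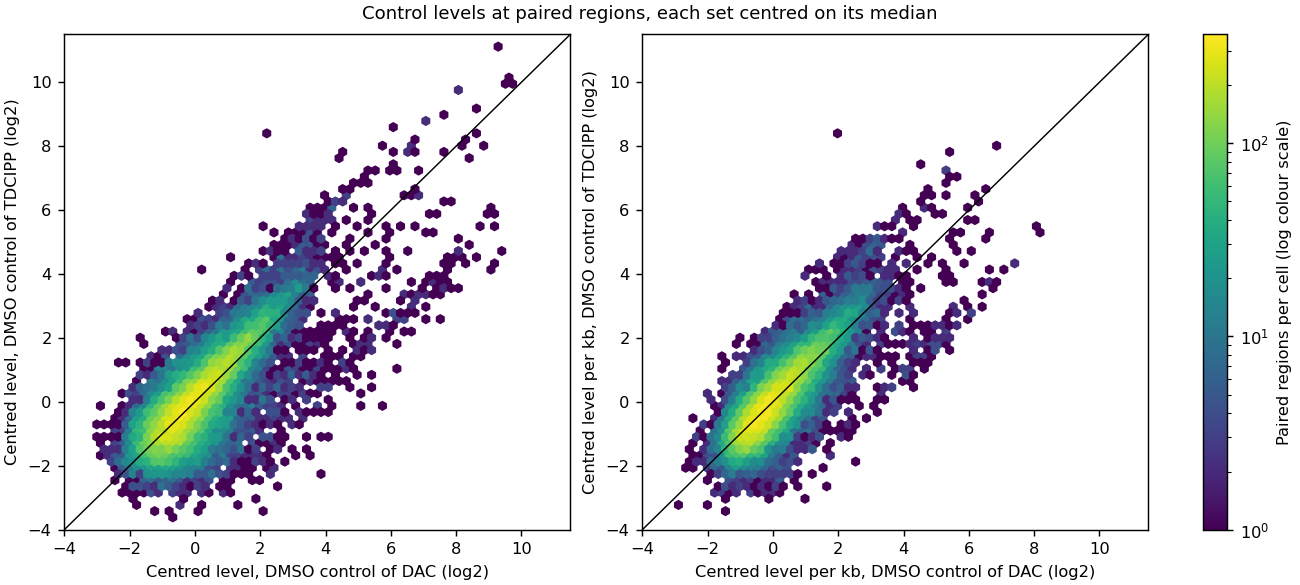
Centred levels (left) and centred levels per kilobase (right), both log2, of the TDCIPP-control set (vertical) against the DAC-control set (horizontal) at 24956 paired regions, with colour for the number of pairs on a log scale and a line at equality. Most pairs follow the line (r = 0.787 and 0.815), a separate band of strong pairs lies below it on the right of both panels, and 1 pair of chromosome 4 stands far above it.

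Chromosome 4 had the widest scatter of the difference among the assembled chromosomes, with an SD of 1.18. Per kilobase, too, its SD was the widest, at 0.97, and its r of 0.755 was the lowest. For whole-region levels its correlation was not the lowest. Pearson r of these levels within a chromosome ran from 0.74 on chromosomes 8 and 17 to 0.84 on chromosomes 3 and 25. On chromosome 4 it was 0.773, with 0.774 beyond 28 Mb and 0.777 before that. The share of pairs past a difference of 1 was 34.2% on chromosome 4, against 18.2% of all pairs, and lay between 12.9% and 21.6% on the other 24. Beyond 28 Mb on chromosome 4 it was 40.4% of 1186 pairs, with an SD of 1.30, and before that it was 19.7% of 503 pairs, with an SD of 0.77. Unplaced sequence also scattered more, with 31.2% of 602 pairs past 1 and a median difference of -0.22. On alternate scaffolds the share was 19.7% of 2600 pairs, and the median difference was 0.28.

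Differences between the control sets came in neighbourhoods. For adjacent pairs less than 2 kb apart, the 2 differences per kilobase had r = 0.762 (537 neighbours), from 2 to 10 kb r = 0.548 (4833 neighbours) and from 10 to 50 kb r = 0.158. Beyond 200 kb it was 0.0059. Among pairs below a mean centred level of 3, the first 2 values were lower, at 0.588 (472 neighbours) and 0.409 (4424 neighbours). A pair and its close neighbours thus tended to be off in the same direction.

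The differences of the strongest regions had several peaks. At the 652 pairs with a mean centred level of at least 3, 55.4% were past a difference of 1, against 18.2% of all pairs. Per kilobase, their differences did not form a single hill around 0. In steps of 0.25, the largest peaks were 32 pairs from -3.25 to -3, 75 from 0.50 to 0.75 and 68 from 1.75 to 2. Between them lay low steps, with 3 pairs from -1 to -0.75 and 39 from 1 to 1.25. Smaller rises lay between them too, such as 17 pairs from -1.5 to -1.25, with 6 and 8 in the steps beside it. Class bounds of -2.5, -0.75 and 1.25 were set by eye after the values were seen, so the classes are a description, and 9 pairs lie just above the lowest bound, up to -2.25. Within each class r per kilobase was between 0.924 and 0.966, which the bounds partly fix, because they cut the difference itself. Over all 652 strong pairs the sets ranked levels much less alike. There r was 0.314 and rho 0.158 for whole regions, and r was 0.431 and rho 0.399 per kilobase. Choosing pairs by their mean level can itself lower these values. Of the 24304 pairs below a mean centred level of 3, 86.5% lay between -0.75 and 1.25.

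The class lowest in the TDCIPP-control set took up a large part of the DAC-control reads. It held 83 pairs with a median difference per kilobase of -3.08 (quartiles -3.27 and -2.84), that is, 8.43 times more reads per kilobase in the DAC-control set after centring. These 83 pairs held 17.2% of all DAC-control reads but 1.52% of the TDCIPP-control reads, a direction that the class bound fixes. Such differences were not confined to strong pairs. Below a mean centred level of 3, a further 87 pairs (0.358%) lay in the same range, against 12.7% of the strong pairs. The 83 strong pairs were spread out, with 73 of them on 18 assembled chromosomes in 27 places when pairs within 50 kb are joined. Chromosome 17 held 11 and chromosome 8 held 10, while chromosome 4 held 6. Of all 21754 pairs on assembled chromosomes, chromosomes 17, 8 and 4 held 816, 947 and 1689. The largest groups were 6 pairs on chromosome 17 from 46481532 to 46518770 and 6 on chromosome 2 from 19423096 to 19483509, with median differences of -2.84 and -3.09 per kilobase. Groups of 5 were found on chromosome 10 from 16806255 to 16840734, on chromosome 4 from 28558368 to 28596449 and on chromosome 8 from 34773464 to 34813570. The median differences of these 5 groups lay between -3.18 and -2.82, a range that the class bound partly fixes.

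The class highest in the TDCIPP-control set held 203 pairs with a median difference per kilobase of 1.82 (quartiles 1.55 and 1.99). It took up 23.4% of the TDCIPP-control reads and 7.81% of the DAC-control reads, a direction that the class bound fixes. Below a mean centred level of 3, 593 pairs (2.44%) lay in the same range, against 31.1% of the strong pairs. Of the 180 pairs of this class on assembled chromosomes, chromosome 4 held 68 (37.8%), chromosome 25 held 30 and chromosome 7 held 29. Chromosome 4 held 116 of all 588 strong pairs on assembled chromosomes (19.7%) and 1689 of all 21754 pairs there (7.76%). Chromosomes 25 and 7 held 631 and 1224 of those 21754 pairs. Without chromosome 4 the class still held 9.59% and 3.39% of the reads. Its largest groups lay on other chromosomes. There were 15 pairs on chromosome 2 from 14664919 to 14831685 and 15 on chromosome 25 from 35044842 to 35156434, with median differences of 1.55 and 1.84 per kilobase. Chromosome 7 held 12 pairs from 6339878 to 6468780 (median 1.89) and chromosome 25 another 11 from 36309759 to 36370470 (median 1.92). On chromosome 17, 7 pairs from 23329700 to 23380246 had the largest median of these groups, 2.35.

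The middle of the distribution held the remaining strong pairs. Between -0.75 and 1.25 there were 311 pairs. Of these, 293 lay on assembled chromosomes, in 250 places on all 25, so most of the 293 stood alone. A further 55 pairs lay between -2.5 and -0.75, of which 7 were on chromosome 24 from 12368750 to 12463148, with a median of -1.32.

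**Figure D5:**
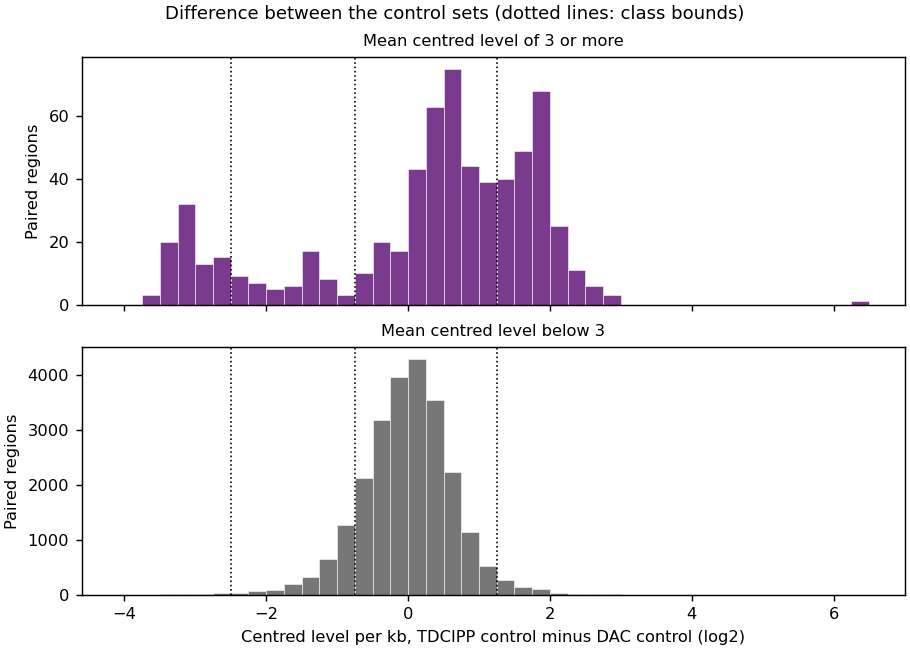
Number of paired regions (vertical) by the difference of centred level per kilobase, TDCIPP control minus DAC control (log2, horizontal, steps of 0.25), for 652 pairs with a mean centred level of at least 3 (upper panel) and 24304 pairs below it (lower panel), with dotted lines at -2.5, -0.75 and 1.25. The strong pairs show several hills, with class medians of -3.08, -1.50, 0.51 and 1.82 from the lowest to the highest class. The other pairs show a single hill near 0.

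Regions with the highest level in both sets were wide regions of chromosome 4, with a single exception. The region at 30951244 to 30977386 had a level of 16.89 in the TDCIPP-control set and its partner, 47035 bp wide, had 14.27 in the DAC-control set. At 69955901 to 70004259 the levels were 16.68 and 14.23, at 69461963 to 69484230 they were 16.82 and 14.06, and at 31250605 to 31279221 they were 15.89 and 13.07. The centred differences of these 4 were from 0.23 to 0.60. Per kilobase they were 1.36 for the first, whose partner is the wider by far and also covers the unpaired region of level 16.29, and from 0.35 to 0.73 for the other 3. The region at 67567489 to 67587215 had the highest level of all in the TDCIPP-control set, 17.92 or 248003 normalized reads, against 13.90 in the DAC-control set, a centred difference of 1.80. The exception lay on chromosome 5 at 822561 to 826892, with levels of 15.16 and 13.13 and a centred difference of -0.19.

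On assembled chromosomes, ranked by the lower of the 2 centred levels per kilobase, the 6 leading pairs were narrower and lay off chromosome 4. Other sequence was not ranked. In the DAC-control set the highest level per kilobase was 12.43 on unplaced sequence, against 11.83 on assembled chromosomes. In the TDCIPP-control set alone, the densest region did lie on chromosome 4, at 33966994 to 33968248. It had 28771 normalized reads per kilobase there and 79.0 in the DAC-control set, and is not among the 6. Chromosome 2 at 14675156 to 14676645 had 22926 normalized reads per kilobase in the TDCIPP-control set and 2210 in the DAC-control set. On chromosome 5, the region at 822561 to 826892 had 8451 and 1797, with neighbours at 833912 to 836653 (7459 and 1372) and at 819201 to 821146 (5478 and 1190). The start of chromosome 7 held the remaining 2, at 2596 to 6346 (6998 and 1616) and at 7007 to 10064 (4762 and 1266). For comparison, the median region had 69.8 normalized reads per kilobase in the TDCIPP-control set and 14.7 in the DAC-control set. Apart from the chromosome 2 region, whose difference per kilobase was 1.27, the centred differences per kilobase of these 6 lay between -0.19 and 0.34.

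The widest pair was not strong for its size. It lay on chromosome 20 at 25759406 to 25824004, 64599 bp in the TDCIPP-control set and 59106 bp in the DAC-control set, with levels of 11.06 and 8.31. Per kilobase this is 33.0 and 5.37 normalized reads, below the medians of 69.8 and 14.7. On chromosome 5 at 43142560 to 43184939, 69.3 and 13.0 normalized reads per kilobase were close to the medians. The region of chromosome 4 at 69955901 to 70004259 was the other one of the 3 widest, and it was both wide and dense, at 2171 and 397.

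Among pairs at or above the median level in both tables and of similar width (within 1.5 times, 9542 pairs), 38 were at least 2 higher in the TDCIPP-control set and 139 at least 2 higher in the DAC-control set, or 0.398% and 1.46%. On assembled chromosomes, the 6 largest differences towards the DAC-control set lay on 6 chromosomes and were almost equal in size. The first was -3.98, on chromosome 20 at 17019714 to 17021132. The region from 17565197 to 17569016 on chromosome 11 had -3.86, and that from 20093736 to 20101097 on chromosome 14 had -3.79. On chromosome 17, the region from 46498392 to 46503057 had -3.75. A value of -3.74 was shared by regions from 1929211 to 1932684 on chromosome 13 and from 64604541 to 64606003 on chromosome 7. The levels behind them varied widely, from 7.20 and 8.72 on chromosome 13 to 12.15 and 13.72 on chromosome 14, with the TDCIPP-control set first. Before centring, the level of the DAC-control set was also the higher one at all 6, while its median level over the pairs was the lower one. Since the scaling of the libraries is not given, that order is not read further.

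Towards the TDCIPP-control set, 1 pair stood alone. On chromosome 4 at 33966994 to 33968248, the level was 15.14 in the TDCIPP-control set and 6.67 in the DAC-control set, or 36107 and 102 normalized reads, a centred difference of 6.25. Its widths were 1255 and 1289 bp, so its extent was nearly the same in both tables. The next largest difference among these pairs was 2.72, on chromosome 17 at 23335627 to 23336372. Of the other 4, chromosome 17 held those at 23383216 to 23383927 (2.68) and 23385414 to 23386888 (2.60), within 50 kb of it. The last 2 lay on chromosome 4 at 67268367 to 67271923 (2.51) and on chromosome 16 at 27581683 to 27586202 (2.50). Since a single library can carry a group mean of 3, whether such a pair reflects 1 library or all 3 cannot be told apart here.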

How the data were processed

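ATAC-seq reads of 6 hours post fertilization embryos were processed by the authors with Bowtie2, Picard, MACS2, deepTools and DiffBind on GRCz11, per the submitters' processing notes, which give no versions. How reads were shifted for Tn5, what was done with duplicates and with reads of several matches, and how libraries were scaled, was not given in sources used here. The columns of the second table name 5AzaC where the labels say decitabine. Per the file headers, each of the 2 deposited tables gives a level per region and group on a log2 scale. The base was checked: the overall level equals the log2 of the mean of both group means within 0.02 in 100% of regions, the single use of treated columns. Single-library values, and so depth per library, are unknown, and near-identical copies of a sequence may share reads, so levels there are uncertain.

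Levels per kilobase are the level minus the log2 of the width in kb. Pairing needed 1 shared base, largest overlap first, each region used once, and was tested on simulated regions and against bedtools 2.31.1. Each set was centred on its median over pairs. Named regions are, on assembled chromosomes, the 6 pairs highest in both sets by level and by level per kilobase, the 3 widest, the 6 largest differences each way among similar strong pairs, the 3 highest unpaired regions of each table, the 4 densest windows and the 3 longest empty stretches. Pairs highest in both sets were ranked by the lower of their 2 centred values. No test was possible. Members, lists and rules were chosen with earlier results of these data known. Python 3.11.15, pandas 2.3.3, numpy 2.4.6 and matplotlib 3.10.9 were used.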

Additional observations from a re-analysis of the deposited data

How the results depend on the processing

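No paired analysis was possible because each group has a single mean per region, and fits that leave out a replicate or use a replicate block were not run for the same reason. The 24956 pairs changed by less than 1.5 times under each alternative except a minimum at the median level of each table, which kept 13413 pairs by construction. Pearson r (0.787) was 0.759 as Spearman rho, 0.815 per kilobase, 0.835 with 50% of both regions shared, 0.792 on assembled chromosomes and 0.778 at or above the median level. The SD of the difference (0.86) was 0.85 when centred within chromosomes, 0.70 per kilobase, 0.76 with 50% of both shared and 0.77 at or above the median level. The share past 1 (18.2%) was 45.9% at a threshold of 0.5, 3.43% at 2, 19.4% with quantile matching and 11.7% per kilobase. Chosen after seeing the data, leaving out chromosome 4 gave r = 0.788, an SD of 0.83 and 17.0%, and leaving out the 652 strong pairs gave r = 0.740 and an SD of 0.82. Median densities became 11.4 and 14.4 per Mb when regions below their table's median level were dropped, and regions covered a median of 3.02% and 3.80% of a chromosome. Median levels were 6.13 and 3.88 per kilobase and 6.41 and 4.15 on assembled chromosomes, and the median width of paired TDCIPP-control regions was 1257 bp. Among pairs past 1, the share higher in the TDCIPP-control set was 46.3% with median centring, 46.3% per kilobase, 46.7% with mean centring and 49.3% with quantile matching.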

Other observations

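A pair of regions on an alternate scaffold of chromosome 11 had nearly the values of a pair on the chromosome itself, noticed after the values were seen. The pair on chromosome 11 at 17565197 to 17569016 had levels of 10.09 and 11.73 in the TDCIPP-control and the DAC-control set. The pair on the alternate scaffold, at 257256 to 261090, had 10.07 and 11.74. Widths in the TDCIPP-control table were 3820 and 3835 bp. Whether both hold the same sequence was not tested.

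In the rows used here, the 3 longest stretches with no region of either table on assembled chromosomes were 828 kb on chromosome 17 from 47149273 to 47977375, 820 kb on chromosome 4 from 45632477 to 46452699 and 603 kb on chromosome 4 from 65982051 to 66584597. Typical gaps were short, with a median of 19.7 kb between neighbouring regions in the TDCIPP-control set and 16.3 kb in the DAC-control set.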
